A study of Mus musculus with 20 samples.

Results

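CaM kinase II (CaMKII), CaM kinase kinase 2 and the calmodulin-binding protein neurogranin were followed through 6 polyA RNA libraries of mouse brain tissue. The 6 genes were chosen by symbol, Camk2a, Camk2b, Camk2d, Camk2g, Camkk2 and Nrgn, out of 34620 gene symbols, and all 6 had reads in every library and passed the filter on low counts. The study behind them compared DNA methylation and RNA between developmental stages and brain regions, and 14 samples of bisulfite sequencing were left aside. The RNA came from microdissected frozen sections, and the labels give every animal as male, C57BL/6 and wild type, with no age. There was 1 library each of striatal precursors (SP), hippocampal precursors (HP), young medium spiny neurons (yMSN, written as medial in the labels) and young hippocampal CA pyramidal neurons (yCA). Dorsal medium spiny neurons (dMSN) had 2 libraries. No label says whether a library came from 1 animal or from a pool, so p-values measure the spread between libraries, which may be technical. Only dMSN had replicate libraries, so where striatal and hippocampal tissue are tested together, that spread also holds differences between them.

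CaMKII is a calcium-activated kinase of synapses. Its holoenzyme is a ring of subunits made from 4 genes, Camk2a (alpha), Camk2b (beta), Camk2d (delta) and Camk2g (gamma). Calcium-loaded calmodulin switches a subunit on, and phosphorylation between neighbouring subunits keeps it active after calcium has fallen, a step needed for long-term potentiation. The alpha and beta forms are the main ones of the adult forebrain, while the delta and gamma forms are made in many tissues, the heart among them for delta. Neurogranin (Nrgn) holds calmodulin at low calcium in dendritic spines and releases it when calcium rises. Camkk2 phosphorylates and activates CaM kinase I, CaM kinase IV and the energy sensor AMPK.

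Promoter sequences of 4 of the 6 genes were taken from the RefSeq table of build GRCm38.p6, a later build than those named for the reads (mm9 and NCBIM37). Camk2a and Camk2g are not among the 4. The table gives 250 bases before and 50 after the start of transcription. The 3 below are shown because Nrgn and Camk2b had the largest rises described here, while Camk2d did not pass the test between dMSN and yMSN. They are printed 5′ to 3′ on the gene's strand, with every CG dinucleotide, the unit of DNA methylation, in capitals. The Nrgn window is chr9:37552696-37552995 on the minus strand, the Camk2b window is chr11:6065699-6065998 on the minus strand and the Camk2d window is chr3:126596701-126597000 on the plus strand.
Nrgn: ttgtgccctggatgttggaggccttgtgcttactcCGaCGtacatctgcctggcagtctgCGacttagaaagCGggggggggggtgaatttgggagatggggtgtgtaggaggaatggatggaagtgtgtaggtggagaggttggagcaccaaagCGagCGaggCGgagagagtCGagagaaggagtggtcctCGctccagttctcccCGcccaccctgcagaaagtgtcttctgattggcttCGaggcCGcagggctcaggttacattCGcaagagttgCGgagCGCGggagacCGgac
Camk2b: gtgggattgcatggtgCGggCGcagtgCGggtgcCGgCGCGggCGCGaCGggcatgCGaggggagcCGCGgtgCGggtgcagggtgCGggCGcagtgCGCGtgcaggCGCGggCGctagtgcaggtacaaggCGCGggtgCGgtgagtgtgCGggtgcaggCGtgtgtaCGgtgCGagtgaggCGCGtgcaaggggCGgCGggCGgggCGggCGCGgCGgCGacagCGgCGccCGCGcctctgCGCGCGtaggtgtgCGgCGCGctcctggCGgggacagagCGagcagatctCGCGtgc
Camk2d: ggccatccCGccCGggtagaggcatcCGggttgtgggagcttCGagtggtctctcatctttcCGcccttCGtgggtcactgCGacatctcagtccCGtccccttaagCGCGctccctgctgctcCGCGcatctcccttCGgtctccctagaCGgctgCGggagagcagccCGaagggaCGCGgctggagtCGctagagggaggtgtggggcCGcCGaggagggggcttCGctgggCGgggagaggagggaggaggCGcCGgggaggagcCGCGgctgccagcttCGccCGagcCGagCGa

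The Nrgn window held 17 CG dinucleotides, the Camk2d window 31, the Camkk2 window 42 and the Camk2b window 51, against a median of 7 and an upper quartile of 20 over 32851 promoters in the table. The GC content was 59.3% for Nrgn, 70.3% for Camk2d, 73.3% for Camkk2 and 77.3% for Camk2b. The GC box letters GGGCGG, searched on both strands, occurred 1 time in the Nrgn and Camkk2 windows and 3 times in the Camk2d and Camk2b windows, where matches may overlap. Of all promoters in the table, 35.7% held at least 1. The E-box letters CANNTG, which read the same on both strands, occurred 1 time in the Nrgn window and in none of the other 3, against 72.3% of all promoters. The half-site of the cyclic AMP response element, TGACG, and the TATA letters TATAAA were searched on both strands and were in none of the 4 windows. They were in 20.8% and 13.6% of all promoters. These are letter matches only.

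Read depth was 31282185 to 36969136 reads in genes for the precursor and young libraries, and 152347673 and 145713678 for dMSN 1 and dMSN 2. Levels are given as CPM, counts scaled to a common library total, after TMM scaling, which corrects for differences in library composition, and TMM-scaled CPM is the scale of every level below. The labelled cell types were checked against marker genes. Summed over 10 medium spiny neuron genes the level was 69.3 (SP), 74.9 (HP), 481 (yMSN), 606 (yCA), and 6467 and 6476 CPM (dMSN), so that these markers did not set yMSN apart from yCA. Most of both young sums was Bcl11b, with 296 CPM in yMSN and 361 CPM in yCA. In dMSN against yMSN Bcl11b fell (log2 change -1.37), while 9 genes of the list rose. The 8 pallial pyramidal neuron genes summed to 616 (yMSN), 1286 (yCA), and 1211 and 1956 CPM in the dMSN libraries, against 54.8 CPM in SP and 85.2 CPM in HP. Most of the dMSN sum was Slc17a7, with 936 and 1487 CPM in dMSN against 33.3 CPM in yMSN, and over the list 2 genes rose and 3 fell in dMSN against yMSN, with a median log2 change of -0.35. The 8 neural precursor genes summed to 5023 (SP), 3955 (HP), 1878 (yMSN), 1765 (yCA), and 228 and 213 CPM (dMSN). The 7 immature neuron genes summed to 1509 (SP), 897 (HP), 3298 (yMSN), 5224 (yCA), and 1614 and 1591 CPM (dMSN). In dMSN Tubb3 held 918 and 855 CPM of that sum, and Stmn2 669 and 710 CPM. The part of precursor cells in the young levels was not tested. Other tissues were present as well. The 15 skeletal muscle genes, all 15 at 1 CPM or more in both young libraries, summed to 2780 CPM in yMSN and 7757 CPM in yCA, against 22.1 to 102 CPM in the other 4 libraries. The 8 keratin and epithelial genes summed to 456 (yMSN) and 322 CPM (yCA), and to 6.66 CPM or less elsewhere. Bone and cartilage genes summed to 489 (SP), 598 (HP), 783 (yMSN), 48.8 (yCA), and 14.0 and 10.5 CPM (dMSN). Most of the SP and HP sums was Col2a1, with 451 and 546 CPM. Erythroid genes summed to 2144 (SP), 2064 (HP), 584 (yMSN), 283 (yCA), and 2.69 and 2.38 CPM (dMSN). Oligodendrocyte genes summed to 8851 and 7586 CPM in dMSN, against 89.3 to 170 CPM in the other libraries. Y-linked reads went against the label male in some libraries, as 3 Y-linked genes had 0 reads in SP and in yCA, 672 in HP, 2108 in yMSN, and 8258 and 9348 in dMSN. Xist, made from the inactive X chromosome of females, was at 1087 (SP), 857 (HP), 489 (yMSN), 762 (yCA), and 0.0332 and 0 CPM (dMSN), so that HP and yMSN held both Xist and Y-linked reads.

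**Figure D1:**
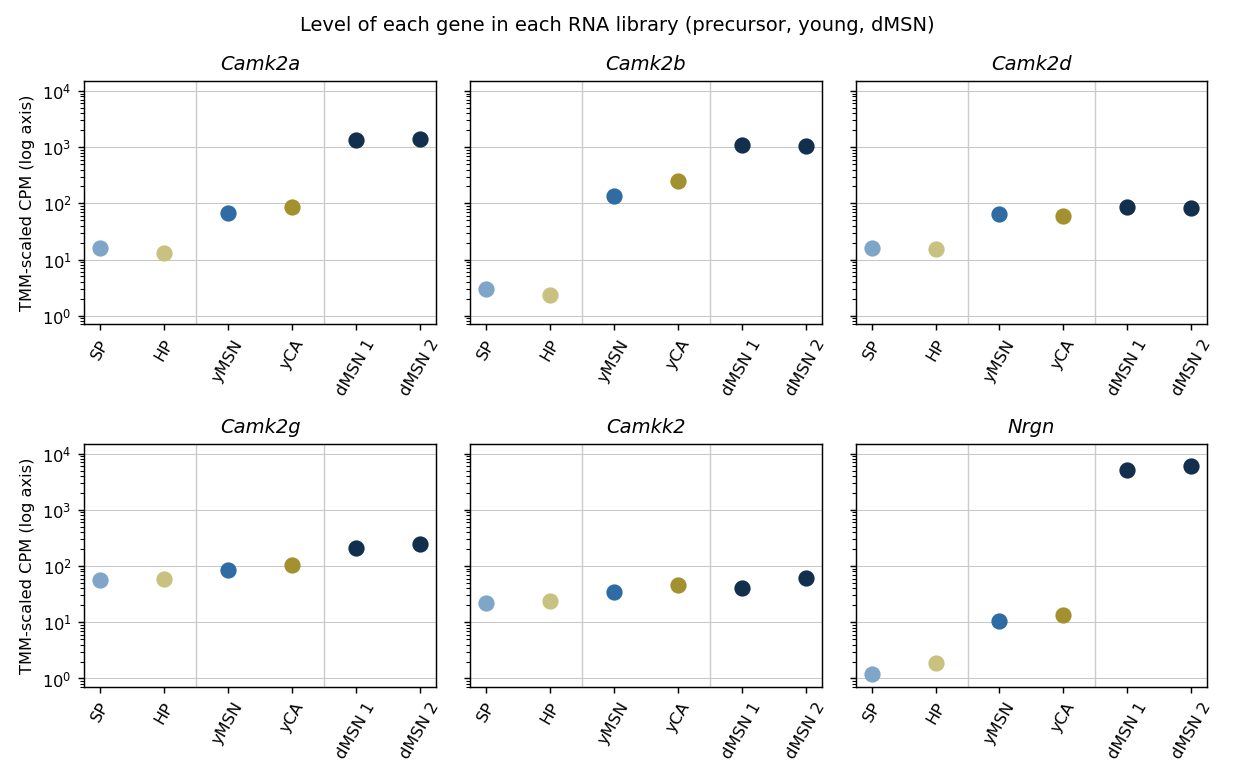
Level of each gene in each library, in TMM-scaled CPM on a log axis shared by the 6 panels. Each point is 1 library, ordered by stage (SP and HP, then yMSN and yCA, then dMSN 1 and dMSN 2). Levels of different genes are not comparable, since no transcript length enters. Nrgn stands between 1.18 and 13.4 CPM in the precursor and young libraries and at 5046 and 6084 CPM in dMSN, while Camkk2 stays between 21.6 and 61.5 CPM.

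The first comparison asked how the genes differ between young tissue and precursors, over both lineages. All 6 were higher in young tissue, from 66.9-fold for Camk2b to 1.63-fold for Camk2g. Among all 19192 genes tested, 35.4% passed, 21.7% higher and 13.7% lower. The test was edgeR's quasi-likelihood test with lineage and stage as terms, 2 residual degrees of freedom and Benjamini-Hochberg adjustment over all genes. No precursor or young group had a replicate, so its spread came from the dMSN pair and from the difference between lineages in the change. The rises of Camk2a, Camk2b, Camk2d and Nrgn passed under all 16 alternatives tried, while those of Camk2g and Camkk2 did not. With each library left out in turn, SP and yCA included, the log2 change ran from 5.36 to 6.68 for Camk2b, from 2.82 to 3.12 for Nrgn, from 1.97 to 2.72 for Camk2a and from 1.88 to 1.99 for Camk2d. Without HP or yCA this change rests on yMSN over SP alone, and without SP or yMSN on yCA over HP alone. These ranges therefore repeat the ratios of the single lineages and are no separate support.

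Camk2b, the beta subunit, which ties the holoenzyme to actin filaments, measured 3.0 (SP), 2.38 (HP), 133 (yMSN), 245 (yCA), and 1108 and 1060 CPM (dMSN 1 and dMSN 2). The 3 stages did not overlap, nor did they for Camk2a, Camk2d, Camk2g and Nrgn. The share of all genes with the stages apart in this way was not counted. In young tissue Camk2b rose by 6.06 on the log2 scale (SE 0.37, edgeR adjusted p = 0.0014). Taken lineage by lineage, the log2 ratio was 5.45 for yMSN over SP (95% interval 5.21 to 5.74, counting error only) and 6.65 for yCA over HP (6.37 to 7.01), with 1 library on each side and no test. Camk2a, Camk2b, Camk2d and Nrgn were over 2-fold higher in both pairs, 4 of 6, as were 20.8% of genes in each, with 9.52% lower for yMSN over SP and 14.1% for yCA over HP. The difference between the lineages' changes did not pass in edgeR (log2 difference -1.21, SE 0.40, adjusted p = 0.117), and over 8 alternatives adjusted p ran from 0.0233 to 0.355. Over all genes 5.2% passed that test (3.12% higher and 2.08% lower), which takes its spread from the dMSN pair alone. The muscle genes were also higher in yCA than in yMSN, while the bone and cartilage genes were lower. The part of either tissue in the Camk2b values was not tested.

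Camk2a, the alpha subunit, measured 15.8 (SP), 13.2 (HP), 66.6 (yMSN), 87.4 (yCA), and 1359 and 1370 CPM (dMSN 1 and dMSN 2). It was therefore detected at every stage, with 461 reads in HP as its lowest count. In young tissue it rose by 2.40 on the log2 scale, or 5.27-fold (SE 0.23, edgeR adjusted p = 0.0027). A shorter product of Camk2a, a kinase anchor without a kinase domain, is known from skeletal muscle, and counts per gene do not separate it from the kinase. In bulk tissue, fewer cells of a type and less RNA per cell cannot be told apart.

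Camk2d, the delta subunit, measured 16.2 (SP), 15.3 (HP), 64.2 (yMSN), 60.8 (yCA), and 85.3 and 83.2 CPM (dMSN 1 and dMSN 2). It rose by 1.99 on the log2 scale in young tissue (SE 0.14, edgeR adjusted p = 0.0018). The log2 ratios of the lineages were 1.99 for yMSN over SP and 1.99 for yCA over HP.

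Camk2g, the gamma subunit, which carries calmodulin to the nucleus in cultured neurons, measured 57.2 (SP), 58.7 (HP), 84.1 (yMSN), 106 (yCA), and 207 and 243 CPM (dMSN 1 and dMSN 2). Its rise in young tissue was 0.70 on the log2 scale (SE 0.17, edgeR adjusted p = 0.0285). That call was lost in 7 of 16 alternatives, with adjusted p from 0.0041 to 0.159, and the log2 change was 0.45 without yCA.

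Camkk2, the kinase of CaM kinases I and IV and of AMPK, measured 21.6 (SP), 23.9 (HP), 34.3 (yMSN), 46.6 (yCA), and 41.3 and 61.5 CPM (dMSN 1 and dMSN 2). The young and dMSN values overlap. It rose by 0.82 on the log2 scale in young tissue (SE 0.24, edgeR adjusted p = 0.0489), at the edge of the threshold. The call was lost in 10 of 16 alternatives, with adjusted p from 0.0059 to 0.156, and the log2 change was 0.56 without yCA. In the RefSeq table the Camkk2 gene overlaps P2rx4, and with no strand setting given, reads from the shared stretch cannot be told apart.

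Nrgn, neurogranin, measured 1.18 (SP), 1.89 (HP), 10.3 (yMSN), 13.4 (yCA), and 5046 and 6084 CPM (dMSN 1 and dMSN 2). The precursor values rest on 47 reads in SP and 66 reads in HP, above the floor of 3 reads. In young tissue Nrgn rose by 2.97 on the log2 scale, or 7.84-fold (SE 0.25, edgeR adjusted p = 0.0023).

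The second comparison set striatal (SP and yMSN) against hippocampal (HP and yCA) tissue. None of the 6 passed in edgeR, and of all genes 0% did (adjusted p = 1 for each of the 6). At an unadjusted p below 0.05, 826 genes were counted, none of the 6 among them, where Nrgn had the lowest unadjusted p in edgeR (0.0884, log2 difference -0.50, SE 0.24). None of the 6 passed with DESeq2 or limma voom either, where 60 and 0 genes passed in all. The single pairs had no test, and none of the 6 reached 2-fold in them. Among genes with at least 5 CPM in a pair, 2.06% were over 2-fold higher and 0.898% lower for SP over HP, and 8.6% and 2.1% for yMSN over yCA. For SP over HP the log2 ratios ran from -0.66 for Nrgn (95% interval -1.25 to -0.12, counting error only) to 0.32 for Camk2b (-0.09 to 0.75). For yMSN over yCA they ran from -0.88 for Camk2b (-0.93 to -0.83) to 0.08 for Camk2d (-0.00082 to 0.16).

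The third comparison followed the striatal libraries from yMSN to dMSN, with 1 mean per cell group in the model and 1 residual degree of freedom. Nrgn, Camk2a, Camk2b and Camk2g were higher in dMSN, by 538-fold, 20.5-fold, 8.16-fold and 2.68-fold, while Camk2d and Camkk2 did not pass. Of all genes tested, 67.5% passed, 32.1% higher and 35.4% lower. The lone yMSN library was assumed to vary like dMSN, and the dMSN libraries were also the deepest, so that stage and depth cannot be told apart. Nrgn averaged 5565 ± 734 CPM (SD) over the 2 dMSN libraries, against 10.3 CPM in yMSN, and it rose by 9.07 on the log2 scale (SE 0.40, edgeR adjusted p = 4.1e-09). Of 19192 genes, 100 had a log2 change at least as large, Nrgn included. Camk2a averaged 1364 ± 7.56 CPM (SD) over the 2 dMSN libraries, against 66.6 CPM in yMSN, a rise of 4.36 on the log2 scale (SE 0.27, edgeR adjusted p = 5.3e-08).

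Camk2b averaged 1084 ± 34.0 CPM (SD) over the 2 dMSN libraries, against 133 CPM in yMSN, and rose by 3.03 on the log2 scale (SE 0.25, edgeR adjusted p = 5.2e-07). Camk2g averaged 225 ± 25.5 CPM (SD) over the 2 dMSN libraries, against 84.1 CPM in yMSN, a rise of 1.42 (SE 0.22, edgeR adjusted p = 9.8e-05). Camk2d averaged 84.3 ± 1.46 CPM (SD) over the 2 dMSN libraries, against 64.2 CPM in yMSN, a log2 change of 0.39 (SE 0.20, edgeR adjusted p = 0.103). With library size alone as the scale its log2 change was -0.18. Camkk2 averaged 51.4 ± 14.3 CPM (SD) over the 2 dMSN libraries, against 34.3 CPM in yMSN, a log2 change of 0.58 (SE 0.26, edgeR adjusted p = 0.0625). The dMSN libraries themselves differed in Camkk2 by 0.57 on the log2 scale, and 11.5% of genes differed by more between them. Over 14 alternatives the adjusted p of Camkk2 ran from 0.0221 to 0.964, and its log2 change was 0.01 with library size alone. Astrocyte genes summed to 1820 and 1904 CPM in dMSN, against 480 CPM in yMSN, and microglia genes to 610 and 558 CPM, against 144 CPM. The 8 genes listed as interneuron markers, Gad1, Gad2 and Cck among them, all rose in dMSN against yMSN, with a median log2 change of 4.42. They summed to 2631 and 2818 CPM in dMSN, against 233 CPM in yMSN. Of the dMSN sums, Sst made up 797 and 755 CPM, Cck 574 and 776 CPM, Gad1 504 and 570 CPM and Gad2 253 and 234 CPM. Oligodendrocyte genes were higher in dMSN as well, and the part of these cell types in the levels of these 6 genes was not tested.

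Set against SP in the same model, all 6 genes were higher in dMSN, where 72.1% of all genes passed, 39.1% higher and 33.1% lower. They remained called under all 14 alternatives. The log2 change was 12.20 for Nrgn (SE 0.47, edgeR adjusted p = 7.7e-10), 8.50 for Camk2b, 6.43 for Camk2a, 2.38 for Camk2d, 1.98 for Camk2g and 1.25 for Camkk2. This comparison shares the dMSN libraries with the one before.

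**Figure D2:**
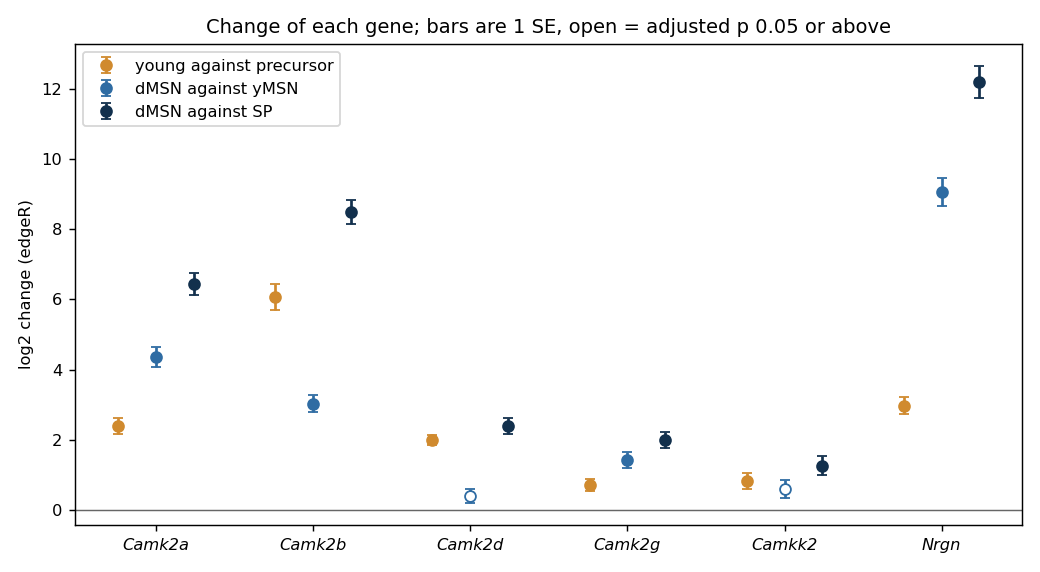
Log2 change of each gene in 3 comparisons, from edgeR. Points are fitted changes, bars are 1 SE, and open points did not pass at an adjusted p of 0.05. Camk2b has its largest step in young tissue (6.06), Nrgn in dMSN against yMSN (9.07), and Camk2d and Camkk2 are open in dMSN against yMSN.

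The genes split their striatal rise differently between the stages. Of the whole log2 change from SP to dMSN, the step from SP to yMSN held 83.5% for Camk2d, 64.4% for Camk2b, 53.6% for Camkk2, 32.3% for Camk2a, 28.1% for Camk2g and 25.6% for Nrgn. These shares are descriptions of 1 SP library, 1 yMSN library and the mean of 2 dMSN libraries. Relative log expression (RLE) and upper quartile scaling gave 63.3% and 65.7% for Camk2b, and 24.5% and 26.1% for Nrgn. With library size alone they were 69.3% for Camk2b, 27.4% for Nrgn, 98.1% for Camkk2 and 109% for Camk2d, whose level then was lower in dMSN than in yMSN.

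Shares of CaMKII reads need no scaling between libraries and show how the family's make-up differed by stage. Transcript lengths were not used here, so a share of reads is not a share of molecules, and only the same gene's share is compared between libraries. The 4 genes together measured 92.2 (SP), 89.6 (HP), 348 (yMSN), 499 (yCA), and 2760 and 2756 CPM (dMSN 1 and dMSN 2). Camk2g held 62.1% of CaMKII reads in SP (Wilson 95% interval 60.5% to 63.7%, counting error only) and 65.5% in HP (63.8% to 67.1%). Its share was 24.2% in yMSN and 21.2% in yCA, and 7.51% and 8.83% in dMSN. The stages did not overlap.

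Camk2b held 3.25% of CaMKII reads in SP (Wilson 95% interval 2.72% to 3.87%) and 2.66% in HP (2.15% to 3.29%). In the young libraries its share was 38.2% in yMSN and 49.1% in yCA, and in dMSN it was 40.2% and 38.5%, within the range of the young ones. Camk2a held 17.1% in SP, 14.8% in HP, 19.1% in yMSN and 17.5% in yCA, so that its share moved little between precursor and young libraries while its level rose. In dMSN it held 49.2% and 49.7%, a mean of 49.5% ± 0.318 (SD, n = 2), above all 4 other libraries. Camk2d held 17.5% in SP, 17.1% in HP, 18.5% in yMSN, 12.2% in yCA, and 3.09% and 3.02% in dMSN. Its share was lower in dMSN than in every other library, although its level was highest there under TMM scaling. No test was run on the shares, since an exact permutation over libraries could not give a p below 0.333 in the comparisons of 2 with 2 or of 2 with 1.

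**Figure D3:**
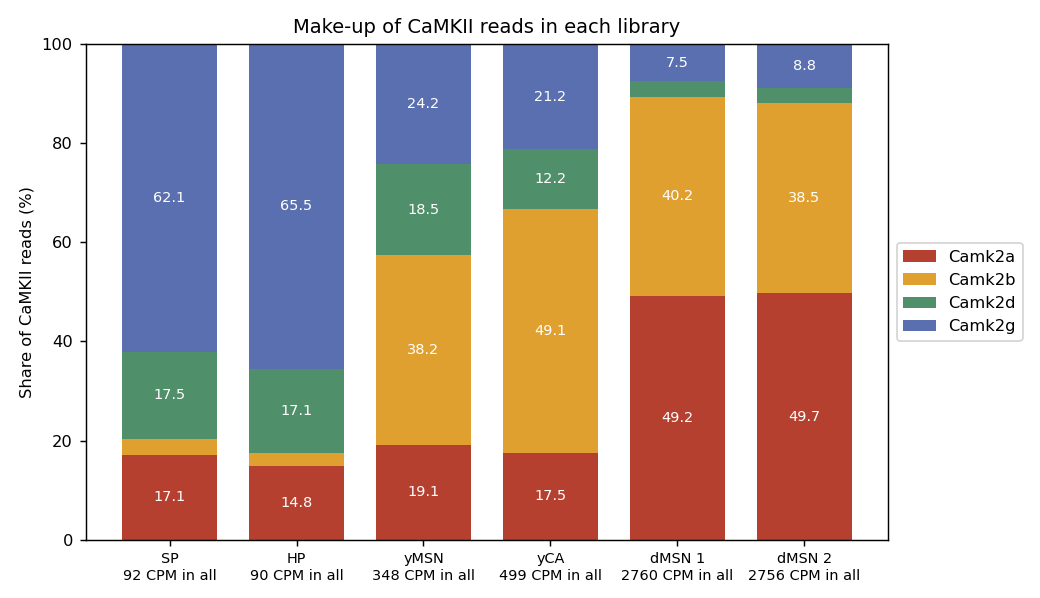
Make-up of CaMKII reads in each library, as stacked percentages of the reads of Camk2a, Camk2b, Camk2d and Camk2g. The summed level of the 4 genes in TMM-scaled CPM is under each bar. Camk2g takes over 60% in SP and HP, Camk2b 38.2% and 49.1% in yMSN and yCA, and Camk2a 49.2% and 49.7% in dMSN.

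The ratio of alpha to beta reads passed through a low point in the young libraries. Camk2a had 5.27 reads per Camk2b read in SP (exact 95% interval 4.32 to 6.46, counting error only) and 5.55 in HP (4.39 to 7.10). The ratio was 0.501 in yMSN (0.479 to 0.524) and 0.357 in yCA (0.343 to 0.371). In dMSN it was 1.23 and 1.29, a mean of 1.26 ± 0.0465 (SD, n = 2). The level of Camk2a was higher at each later stage, and Camk2b had its larger step before the young libraries. Nrgn had 0.0750 reads per Camk2a read in SP and 0.143 in HP, 0.155 in yMSN and 0.154 in yCA, and 3.71 and 4.44 in dMSN.

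The other genes of the calmodulin pathway were described from lists of 59 genes in all, without the 6. In young tissue 30 rose and 2 fell against precursors, where 21.7% of all genes were called higher and 13.7% lower. The median log2 change was 0.88, and 0.10 for all genes. In dMSN 34 rose and 11 fell against yMSN, where 32.1% of all genes were called higher and 35.4% lower. The median was 0.75, and -0.11 for all genes. These shares of all genes are the background of each list below. The young changes below are means over both lineages. The difference between the lineages' changes, striatal less hippocampal, had a median of -0.43 on the log2 scale over the 59, and 0.02 for all genes. It was -1.55 for Adcy1, -1.55 for Gria1 and -1.31 for Camk4, but 1.95 for Itpka.

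All 9 genes of the list of other CaM kinases and CaMKII inhibitors rose in young tissue, and all 9 rose in dMSN against yMSN, where 21.7% and 32.1% of all genes were called higher. The median log2 changes were 1.97 and 2.93. The alternatives left 8 or 9 and 7 to 9 of them called. Camk2n1 and Camk2n2 encode inhibitor proteins that bind the active CaMKII kinase domain. Camk2n1 measured 31.1 (SP), 15.9 (HP), 72.9 (yMSN), 68.0 (yCA), and 2110 and 2523 CPM (dMSN 1 and dMSN 2). It rose by 4.99 on the log2 scale in dMSN against yMSN (SE 0.31, edgeR adjusted p = 4.5e-08). Camk2n2 rose by 3.57 there. Among the targets of Camkk2, Camk4, a nuclear CaM kinase, rose by 2.75 in young tissue and by 3.03 in dMSN, Camk1 by 0.88 and 1.61, and Camk1d by 3.09 and 0.81. Camkk1, the close relative of Camkk2, rose by 1.33 and 2.93, and stood at 135 and 144 CPM in dMSN against 18.3 CPM in yMSN. The call of Camk1d in dMSN was lost with library size alone and without either dMSN library.

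Of the genes for calmodulin itself, Calm2 and Calm3 are described here. They measured between 335 and 406 CPM in the precursors, between 493 and 574 CPM in the young libraries, and between 2038 and 3288 CPM in dMSN. Both rose in dMSN against yMSN, by 2.53 and 1.99 on the log2 scale, under each alternative tried. In young tissue Calm3 rose (log2 change 0.64, SE 0.18, edgeR adjusted p = 0.0418), a call lost in 10 alternatives, and Calm2 did not pass (log2 change 0.40, SE 0.23, edgeR adjusted p = 0.237).

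Of the 5 calmodulin-binding buffers other than Nrgn, Gap43 and Pcp4 rose in young tissue and Pcp4l1 fell, and 3 rose and 2 fell in dMSN against yMSN, beside 32.1% and 35.4% of all genes. The fall of Pcp4l1 (log2 change -0.79, edgeR adjusted p = 0.0215) was lost with limma voom, without HP, without dMSN 1, without dMSN 2 and without both. Pcp4, which like neurogranin has an IQ motif, measured 0.629 (SP), 0.431 (HP), 11.4 (yMSN), 16.2 (yCA), and 759 and 668 CPM (dMSN 1 and dMSN 2). It rose by 4.66 and by 5.97 on the log2 scale. Gap43, the axonal relative of neurogranin, rose by 2.29 in young tissue and by 0.75 in dMSN, where library size alone, the model of lineage and stage, and the fits without either dMSN library lost the call. Marcks and Marcksl1, which bind actin and membranes, fell in dMSN by 1.58 and 1.82.

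Calcineurin, the phosphatase that calmodulin activates, had 5 of 8 listed genes higher in young tissue, and 4 higher and 1 lower in dMSN against yMSN, where 21.7% of all genes were called higher in young tissue and 32.1% in dMSN. With dMSN 1, dMSN 2 or both left out, the count in young tissue was 3. Ppp3ca, its main catalytic subunit in brain, rose by 1.55 and by 3.68 on the log2 scale, to 2271 and 2351 CPM in dMSN against 180 CPM in yMSN. Rcan3, a regulator of calcineurin, rose by 1.59 in young tissue and fell by 1.43 in dMSN. Of 8 calmodulin-regulated enzymes, 5 rose in young tissue, and 5 rose and 1 fell in dMSN, against the same shares of all genes. The young count was 3 without dMSN 1 and without dMSN 2. Pde1b, a phosphodiesterase of the striatum, stood at 930 and 854 CPM in dMSN, against 43.3 CPM in yMSN. Itpka, an inositol kinase of dendritic spines, stood at 280 and 333 CPM in dMSN, against 2.95 CPM in yMSN. Adcy1, a calmodulin-activated adenylyl cyclase, rose by 2.43 in young tissue and by 0.56 in dMSN, and the dMSN call was lost with upper quartile scaling, with the model of lineage and stage, also without either dMSN library, and with library size alone, where the log2 change was -0.0047.

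Of 9 anchors and substrates of CaMKII, 5 rose in young tissue and 6 in dMSN against yMSN, where 21.7% and 32.1% of all genes were called higher. The young count was 8 without yMSN and with 1 mean per cell group. Grin2b, the NMDA receptor subunit that binds CaMKII, rose by 5.86 on the log2 scale in young tissue, with 13.8 CPM in yMSN and 37.3 CPM in yCA against 0.453 CPM in SP and 0.316 CPM in HP. It did not pass in dMSN (log2 change 0.38, edgeR adjusted p = 0.196). Lrrc7, the scaffold densin, rose by 3.60 in young tissue and did not pass in dMSN, at 0.62. The AMPA receptor subunit gene Gria1 rose by 5.07 and by 1.67, and Grin1 by 5.04 and by 4.85. In the model of lineage and stage the count in dMSN was 3 of 9 without dMSN 1 and 2 of 9 without dMSN 2, where Gria1 lost its call in both.

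The last lists are those linked to Camkk2 and to nuclear CaM kinases. Of 8 genes listed around AMPK, Stk11 and Akt1 included, 1 rose in young tissue, Prkaa2, an AMPK catalytic subunit, by 2.46. In dMSN 3 rose, Stk11 among them, and 4 fell, beside 32.1% and 35.4% of all genes. The young count was 3 without SP, without yMSN and with 1 mean per cell group. Prkag1 rose by 1.75 in dMSN and Prkaa2 fell by 0.91, a call lost without either dMSN library in the model of lineage and stage. Of 9 CREB and class II histone deacetylase genes, 2 rose and 1 fell in young tissue, and 1 rose and 3 fell in dMSN, counts near or below the shares of all genes. The young count of higher genes was 1 without yCA and without both dMSN libraries, and that of lower genes was 0 without dMSN 1 and without dMSN 2, and 2 without yCA, with DESeq2 and with 1 mean per cell group. Creb1, a transcription factor phosphorylated by CaM kinase IV, fell by 2.18 to 23.4 and 26.3 CPM in dMSN, against 112 CPM in yMSN, and its coactivator Crebbp fell by 2.33. Over the alternatives the dMSN counts ran from 1 to 3 higher and 0 to 5 lower for AMPK, and from 0 to 2 higher and 2 to 5 lower for CREB.

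**Figure D4:**
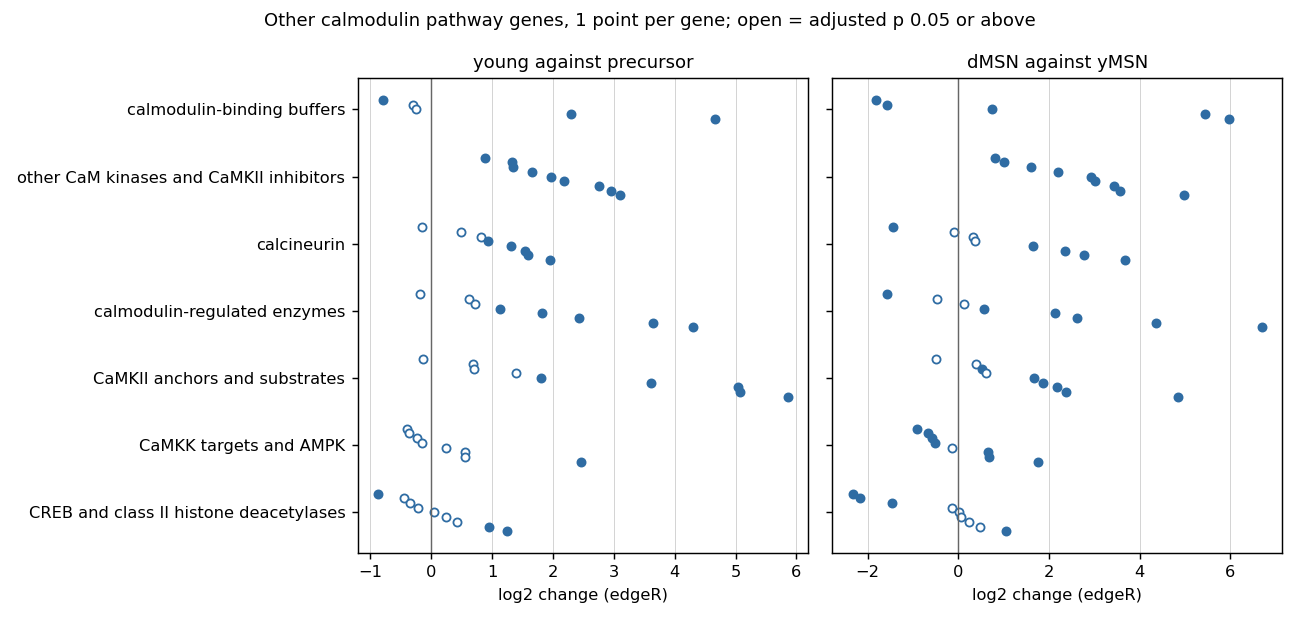
Log2 change of the listed calmodulin pathway genes, without those for calmodulin itself, in young tissue against precursors and in dMSN against yMSN, from edgeR, 1 point per gene and 1 row per list. Filled points passed at an adjusted p of 0.05. All 9 other CaM kinases and CaMKII inhibitors lie to the right of 0 in both panels, while the AMPK and CREB rows lie on both sides.

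The genes with the most similar course were found by the root mean square difference between centred log2 CPM profiles over the 6 libraries, among 11730 genes with a mean of at least 5 CPM, without predicted genes and pseudogenes. For Nrgn, Pvalb (0.41), a calcium buffer of interneurons, and Egr4 (0.47) lay within 0.5. Both passed the minimum of 5 CPM only through dMSN, with 244 and 163 CPM there for Pvalb and 129 and 170 CPM for Egr4, so that they had to be high in dMSN as Nrgn was. Egr4 had no reads in SP or HP, Pvalb was below the floor of 3 reads in both, and Tekt5, named next, was below it in HP, so that these distances rest in part on the prior count of 2. Camk2b had 9 genes within 0.5, led by Rasgrf2 (0.19), Tekt5 (0.28) and Dpp10 (0.33). Camk2a had 93, led by Tmem158 (0.07), Fn3k (0.10) and Fam131a (0.13). For Camk2d the number was 508, with Cul9, Bzrap1 and Syt7 nearest. For Camk2g it was 1828, with Rnf103, Ppp1r9b and Mcts1, and for Camkk2 it was 1749, with B3galnt1, Atxn7l1 and Slc25a16. Like Pvalb and Egr4, Fn3k and Tekt5 were below 5 CPM in every library but dMSN and passed the minimum only through it. Fn3k had 74.5 and 66.9 CPM there, and Tekt5 33.4 and 25.9 CPM. Ranked by Pearson correlation, only Slc25a16 of the genes named here stayed among the 3 nearest to its member. Between the 6 genes themselves the smallest distance was 0.42, for Camk2g and Camkk2, and the largest was 4.62, for Camkk2 and Nrgn.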

How the data were processed

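RNA from 6 libraries was measured as raw read counts per gene symbol, deposited by the authors in 1 table per library, each ending in 5 HTSeq-style summary lines. Per the submitters' processing notes, TopHat2 2.0.2, TopHat, Bowtie 1.0.0, HTSeq and edgeR were used, and mm9 and NCBIM37 are named as builds, with no role or order for any of them. No strand setting is given in the sources used here. Reads in no gene were 5.34% to 9.81%, ambiguous reads 1.38% to 2.01% and reads aligned to several places 17.3% to 27.3% of each library, and they were left out. The tests used edgeR 4.0.16 in R 4.3.3, limma 3.58.1 and DESeq2 1.42.0. filterByExpr kept 19192 genes, and TMM factors were 1.10 to 1.18 in the precursor and young libraries and 0.790 and 0.795 in dMSN. Significance was called at a Benjamini-Hochberg adjusted p of 0.05 over all genes, and the SE is the log2 change divided by the square root of F. Log2 ratios of single pairs use a prior count of 2 and exact intervals at 95%. Intervals and floors (3 reads, 0.0249 to 0.0861 CPM) cover counting error only, and reads without molecular identifiers are not independent molecules.

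The 6 genes, the lists and the tests were chosen with earlier results of these data known. Named genes are the 6, members of the pathway lists, and the 3 nearest genes of each. A few that this rule names are not reported here. Shares were planned per transcript or coding length, no such length was used here, and shares of reads are given instead. Alternatives were RLE, upper quartile and no scaling, other filters, robust moderation, the other model, DESeq2, limma voom and each library left out. Scaling by library size alone and leaving out both dMSN libraries were added after the data had been seen. The fits were tested on simulated counts.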

Additional observations from a re-analysis of the deposited data

How the results depend on the processing

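No paired analysis was possible because the groups compared share fewer than 2 replicate numbers. For young against precursor, 6798 genes passed, 3590 to 7355 with 1 library left out and 4421 without both dMSN libraries. The lowest, 3590 and 3647, came without dMSN 1 and without dMSN 2, where no dMSN pair is left to give spread. In this comparison every fit with 1 library left out keeps 1 residual degree of freedom. For striatal against hippocampal 0 passed, 60 with DESeq2, 356 with 1 mean per cell group and 0 to 1510 with 1 library left out (0 without either dMSN library, 116 without yCA, 130 without yMSN, 1495 without HP and 1510 without SP). For dMSN against yMSN 12948 passed, and 6609 to 12943 with 1 library left out, the lowest without dMSN 1 and 7073 without dMSN 2, both in the model of lineage and stage. For the difference between lineages 998 passed and 3 with limma voom, and of the 6 genes 0 did, but 1, Camk2b, did with no filter and 1 with DESeq2. Of calls for young against precursor, 61.3% were higher, and 52.4% with RLE scaling, which took the median log2 change of all genes to -0.02 against 0.10. For dMSN against yMSN 47.6% were higher, and 31.0% with library size alone, which took that median to -0.68 against -0.11; for dMSN against SP the values were 54.1% and 43.4%.

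Signs turned for Camk2d in dMSN against yMSN with library size alone (-0.18), and for Camk2d in the difference between lineages, which was 0.00, with RLE scaling (-0.0773), DESeq2 (-0.0773), no filter (-0.12) and a filter at 1 CPM in 2 libraries (-0.0742). For striatal against hippocampal, leaving out 1 library gave -0.39 to 0.26 for Camk2a and -0.88 to 0.33 for Camk2b. Without HP or SP that difference rests on yMSN over yCA alone, and without yCA or yMSN on SP over HP alone. Among the other results on the 6 genes, 17 calls in young against precursor were lost, all of Camk2g and Camkk2, and Camkk2 in dMSN against yMSN was called with RLE scaling and with no filter. The cause was not tested. The difference between lineages could not be recomputed with a library left out. Depth limits the precursor values of Nrgn and Camk2b most, at 47 to 119 reads.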

Other observations

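Nrgn took 0.399% and 0.484% of all reads in genes in dMSN 1 and dMSN 2, against 0.00121% in yMSN, values that need no scaling. Between the dMSN libraries Camk2a differed by 0.01 on the log2 scale and Camkk2 by 0.57, where the median gap of all genes was 0.21. The sum of the 4 CaMKII genes in dMSN was 2758 ± 2.43 CPM (SD, n = 2), while Camk2b was lower and Camk2g higher in dMSN 2 than in dMSN 1.

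P2rx4, the ATP receptor gene that overlaps Camkk2 in the RefSeq table, had 530 reads in yMSN and 3115 and 2832 reads in dMSN. Reads shared between the genes were not analysed here, and their part in the Camkk2 values was not tested.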
